A study of Mus musculus with 4 samples.

Results

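The effect of a tumor on muscle RNA in mice that also exercised was read from a single pair of gastrocnemius libraries. The cancer exercise library, E(+)T(+), came from male CDF1 mice that received CT26 cells, a mouse colorectal carcinoma line, through the tail vein and ran on a motorized treadmill at high intensity. The normal exercise library, E(+)T(−), came from mice of the same strain and sex that ran in the same way and received no tumor cells. Both groups were labelled postnatal day 28, and tissue was taken 19 days after the injection. The series holds 4 libraries, 1 a group, and the other two, cancer control E(−)T(+) and normal control E(−)T(−), are the same pair without exercise and are set beside the exercised pair for comparison. The labels name 10 mice a group, while the text of the study describes the muscle sequenced as that of a representative animal of each group. With 1 library a side no spread between animals exists, so no test was made, and each value below describes these libraries and not the conditions.

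All 23282 gene rows entered, and a row was kept when its normalized read count reached 16 in at least 1 of both exercised libraries, which left 12447 rows. A row was called when its log2 values differed by 1 or more, which is a 2-fold change of the normalized read count plus 1. By that rule 2955 rows were called, 23.7% of those kept, with 1360 (10.9%) higher and 1595 (12.8%) lower in cancer exercise. Counts of called members in the lists below are to be read against these shares of all kept rows. The threshold fell in a dense part of the distribution, since 403 rows lay just inside it, with a log2 difference between 1 and 1.1 in size, and 439 just outside it, between 0.9 and 1. The words higher and lower are used below for called rows, and the counting interval after a fold is the 95% interval of the log2 ratio that the reads of both libraries allow, without any spread between animals. That interval left out 0 for 2931 of the called rows (99.2%) and lay wholly past 2-fold for 1557 (52.7%).

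Skeletal muscle loses protein in cancer cachexia chiefly through the ubiquitin-proteasome system and autophagy. Muscle-restricted ubiquitin ligases such as Trim63 (MuRF1) and Fbxo32 (atrogin-1) tag contractile and regulatory proteins, and their genes are driven by FoxO factors, which insulin and IGF signalling hold out of the nucleus, and by the glucocorticoid receptor. Cytokines of the IL-6 family act through STAT3 and raise acute phase proteins, while metallothioneins, small cysteine-rich proteins that bind zinc and copper, respond to metals, glucocorticoids and cytokines. Exercise acts on the same tissue through calcium, AMPK, PPAR and PGC-1 signals that adjust fuel use, and through mechanical load on the sarcomere.

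The cancer exercise library held 11026598 reads over 14427 genes and the normal exercise library 13225998 reads over 14718 genes, and 3 reads, the limit that a count of 0 allows, stand for between 2.27e-05% and 2.82e-05% of a library in this series. The samples were muscle by their leading transcripts. The fast troponin Tnni2 stood at 212042 in cancer exercise and 221047 in normal exercise, the fast myosin heavy chain Myh4 at 141947 and 137302, skeletal actin Acta1 at 204111 and 271387, and the muscle creatine kinase Ckm at 94891 and 123400 normalized read counts. None of these 4 genes was called. The median log2 difference of all kept rows was −0.02 and the median of their absolute differences was 0.50. Scaling by the total count in place of the deposited normalization lowered differences of the exercised pair by about 0.16 on the log2 scale. The shift was smaller where a library had few or no reads. The median became −0.18, with 1062 rows higher and 2002 lower, so the share of calls in each direction rests on the scaling. Where a list median printed below changes sign with the scaling, this is said beside it. In bulk muscle, fewer cells of a type and less RNA per cell cannot be told apart.

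**Figure D1:**
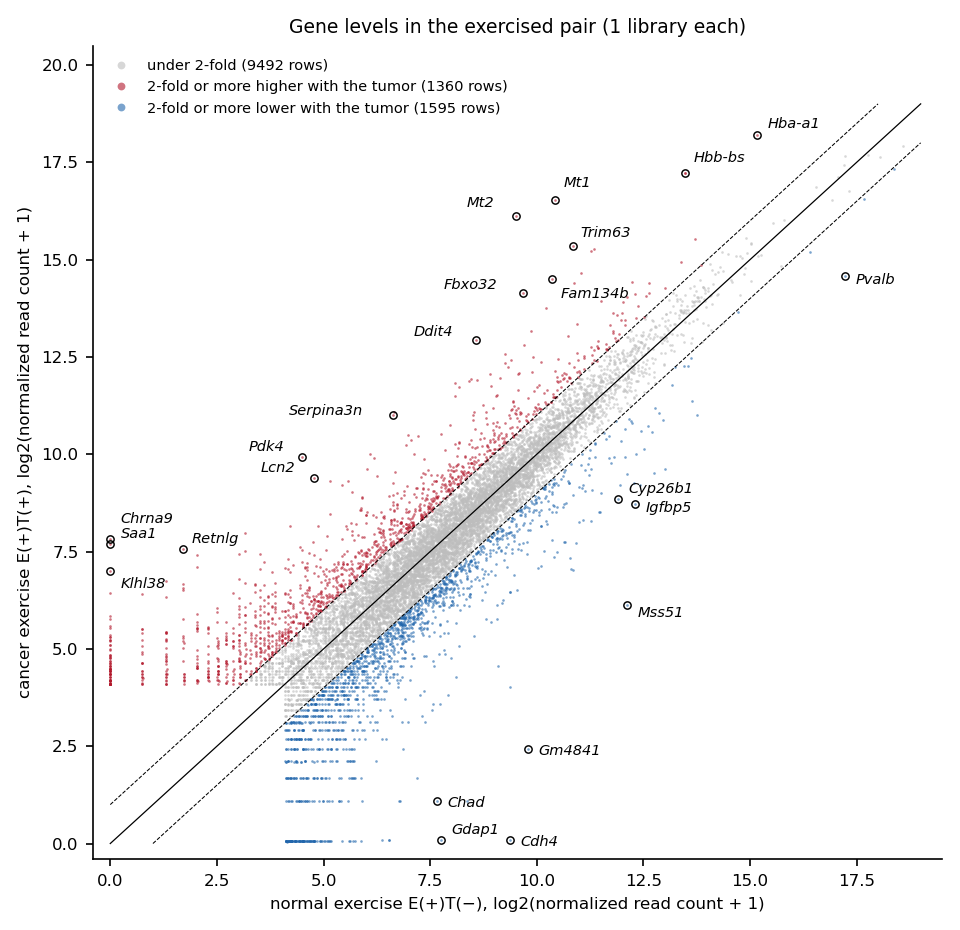
Each point is 1 gene row of the exercised pair past the minimum, with its level in normal exercise on the x axis and in cancer exercise on the y axis, both as log2 of the normalized read count plus 1; the solid line marks equal levels and the dashed lines a 2-fold change. The 1360 higher rows (red) and 1595 lower rows (blue) flank 9492 rows under 2-fold, with Mt1, Mt2 and Trim63 far above the line at high levels and Pvalb and Mss51 far below it.

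Both measured metallothioneins were among the 10 largest rises. Mt1 stood at 94760 normalized read counts in cancer exercise and 1383 in normal exercise, a 68.5-fold difference (interval 6.03 to 6.17 on the log2 scale). Mt2 stood at 71814 and 731, a 98.1-fold difference (interval 6.52 to 6.71). Both were also higher in the sedentary pair, where Mt1 stood at 151924 with the tumor and 1293 without and Mt2 at 101914 and 727. The levels without the tumor were close in exercised and sedentary muscle, whereas those with the tumor were lower in the exercised library; this difference was not tested. Of the 4 listed metallothionein genes 2 passed the minimum. Zinc transporters as a list barely moved, with 1 of 16 kept members higher, 1 lower and a median of −0.05. The member that was higher was Slc39a14 (ZIP14), a zinc and iron importer raised in inflammation, at 238 against 33.1 (7.02-fold, interval 2.36 to 3.36), and the lower one was Slc39a3, a zinc importer, at 58.5 against 152 (−1.36 on the log2 scale).

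The sequences before the starts of both metallothionein genes are shown because these genes led the rises among the 2051 rows with a level of 1000 or more in 1 library and 16 or more in both, and because metal response elements, the sites of the zinc-sensing factor MTF1, are known from such promoters. Each is the 250 bases before the RefSeq start on GRCm38.p6, plus strand, at chr8:94172368-94172617 for Mt2 and chr8:94178839-94179088 for Mt1, with matches to the core TGCACNC or TGCGCNC on either strand in capitals.
Mt2: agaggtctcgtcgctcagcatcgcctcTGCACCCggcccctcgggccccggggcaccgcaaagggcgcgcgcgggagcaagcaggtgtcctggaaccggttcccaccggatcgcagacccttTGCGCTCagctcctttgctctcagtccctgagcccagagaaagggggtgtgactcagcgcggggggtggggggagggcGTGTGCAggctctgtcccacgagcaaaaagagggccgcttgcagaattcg
Mt1: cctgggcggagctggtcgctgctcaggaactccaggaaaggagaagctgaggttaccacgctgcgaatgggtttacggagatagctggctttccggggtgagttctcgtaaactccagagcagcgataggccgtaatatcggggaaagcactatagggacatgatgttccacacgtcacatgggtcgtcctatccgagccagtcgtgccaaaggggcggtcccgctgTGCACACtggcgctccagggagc
In these windows Mt2 held 3 matches, beginning 223, 128 and 50 bases before the start, and Mt1 held 1, beginning 23 bases before it. Only the 250 bases before each RefSeq start were searched, so matches elsewhere near either gene were not counted. The core is short and common. It lay in 21.4% of all 32851 promoter windows, in 34.3% of those of kept genes, in 27.7% of those of higher genes and in 32.2% of those of lower genes.

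The list of muscle ubiquitin ligases and other atrophy genes had 5 higher and 2 lower of 17 kept members, with a median of 0.29 against −0.02 for all kept rows. Trim63 stood at 41938 normalized read counts in cancer exercise and 1828 in normal exercise (22.9-fold, interval 4.46 to 4.58), and Fbxo32 at 18103 and 812 (22.3-fold, interval 4.39 to 4.57). In sedentary muscle the same genes stood at 93779 against 5950 and at 37250 against 3575, folds of 15.8 and 10.4, and each of these levels was above its exercised counterpart. Klhl38, a kelch-repeat protein of muscle, had 116 reads in cancer exercise and none in normal exercise, at least 51.7-fold higher, against a log2 difference of 0.66 in the sedentary pair. Fbxo31, an F-box protein, stood at 2648 against 696 and Eda2r, a receptor of the TNF receptor family, at 316 against 94.7. The lower members were Amd1, which makes the donor for polyamine synthesis, at 588 against 5456, and the lysine methyltransferase gene Mettl21c at 283 against 1096. Amd1 and its near-identical copy Amd2 (738 against 6821) may share reads, so the values of each are uncertain.

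The 250 bases before the start of Trim63 (RefSeq, GRCm38.p6, chr4:134314870-134315119, plus strand) are shown because this ligase is a known target of both the glucocorticoid receptor and FoxO, whose lists moved as described below. Capitals mark a hexamer of the glucocorticoid response element, AGAACA read on the reverse strand, from 200 to 195 bases before the start, and directly after it without overlap a FoxO motif, GTAAACA read on the reverse strand, from 194 to 188 bases before it.
Trim63: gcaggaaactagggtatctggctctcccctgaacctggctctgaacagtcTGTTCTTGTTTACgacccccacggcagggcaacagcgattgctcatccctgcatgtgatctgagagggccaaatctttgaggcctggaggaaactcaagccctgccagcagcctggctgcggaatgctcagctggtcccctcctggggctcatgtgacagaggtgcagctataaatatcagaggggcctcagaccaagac
The hexamer lay in 16.1% of all promoter windows, 12.9% of those of kept genes, 13.6% of those of higher genes and 13.9% of those of lower genes, and the FoxO motif in 3.17%, 2.69%, 2.68% and 2.84%. A match of these letters is a description and was not tested as a binding site.

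Most subunit genes of the 20S core and 19S cap of the proteasome shifted upward in exercised muscle, with smaller medians than in the sedentary pair. In the exercised pair 10 of 14 core and 17 of 18 cap genes had a difference above 0. None of 14 kept subunits of the 20S core, the barrel that cuts proteins, was called, with a median of 0.42, whereas the sedentary pair had 8 of 14 higher and a median of 1.05. Of 18 subunits of the 19S cap, which unfolds tagged proteins, 4 were higher and none lower, with a median of 0.68 against 1.54 in the sedentary pair, where 16 of 18 were higher. Those 4 were Psmd4 (12304 against 3742), Psmc2 (6864 against 2472), Psmd8 (10240 against 4314) and Adrm1 (1898 against 864), and all were also higher in the sedentary pair. Of the 23 kept ubiquitin and conjugating enzyme genes 2 were higher and none lower, among them the p97 cofactor Nploc4 at 1280 against 617. The interferon-inducible subunit Psmb9 was lower, at 86.7 against 256.

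Autophagy and lysosomal genes were called in smaller shares than the 23.7% of all kept rows called in either direction. Every called member of both lists was higher, in shares above the 10.9% of all kept rows that were higher. Of 30 kept autophagy genes 5 were higher and none lower (median 0.26, against 12 higher, 2 lower and 0.83 in the sedentary pair). These were Gabarapl1, which coats the autophagosome (2063 against 646), the mitophagy receptor Bnip3 (7086 against 2713), Wipi1 (632 against 246), the cargo receptor Sqstm1 (8846 against 3552) and the initiating kinase Ulk1 (1037 against 511). Fam134b, a receptor for autophagy of the endoplasmic reticulum that is not on the list and was among the largest abundant rises, stood at 23073 against 1310 (17.6-fold), close to its sedentary 17.3-fold. Of 21 kept cathepsins and lysosomal proteins 4 were higher and none lower, with a median of 0.56 in both pairs. The cholesterol exporter Npc1 stood at 1106 against 229, cathepsin L (Ctsl) at 4522 against 1365, cathepsin S (Ctss) at 763 against 297 and legumain (Lgmn) at 465 against 202.

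Targets of the glucocorticoid receptor moved as a group in one direction. Of 20 kept members 15 were higher and none lower, with a median of 2.31, and the sedentary median was also 2.31. Ddit4, a brake on mTORC1, stood at 7874 against 380 (20.7-fold, interval 4.24 to 4.51). The cell cycle inhibitor Cdkn1a stood at 3668 against 272 (13.4-fold), the transcription factor Klf15 at 586 against 42.0 (13.7-fold), the receptor co-chaperone Fkbp5 at 3417 against 289 (11.8-fold) and glutamine synthetase Glul at 15726 against 2887 (5.45-fold). Not every classic target passed 2-fold, since Tsc22d3 (GILZ) stood at 5133 against 3602 and Sgk1 at 1998 against 1055. The receptor gene Nr3c1 itself stood at 626 against 1107, a log2 difference of −0.82 that was not called. Members of this list, among them Mt2, Lcn2 and Ddit4, also belong to others, so the lists are not separate.

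FoxO factors and their targets showed 11 higher and 2 lower among 19 kept, with a median of 1.54. Pdk4, the kinase that shuts pyruvate dehydrogenase, stood at 969 in cancer exercise and 21.7 in normal exercise (42.7-fold, interval 4.92 to 6.08). Its sedentary values were 1060 and 427, so the cancer libraries lay close together and the normal exercise library stood below the other 3. Foxo1 stood at 1499 against 513, the translation repressor Eif4ebp1 at 13891 against 1188 (11.7-fold) and the insulin receptor substrate Irs2 at 60.6 against 4.70. The lower members were Foxo6, with 2 reads against 64 (log2 ratio −4.04, interval −7.66 to −2.67), and the repressor Bcl6 at 428 against 1012. In the insulin and IGF list 5 of 22 kept members were higher and 2 lower. The IGF-binding protein genes went apart, with Igfbp3 at 1464 against 215 and Igfbp5 at 424 against 5052 (−3.57, interval −3.73 to −3.43), and the receptor Insr stood at 637 against 198 and the kinase Akt1 at 7296 against 3160.

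Genes of the mTORC1 pathway and its brakes did not move together. Besides the brake Ddit4 and the translation repressor Eif4ebp1, the stress sensor Sesn1 was higher at 1312 against 132 (9.88-fold). Ddit4l, a paralogue of Ddit4, was lower at 1886 against 7906 (−2.07). The list, which holds pathway genes as well as brakes, had 5 higher and 2 lower of 19. Its median of 0.13 changed sign with total count scaling (−0.03). Of 28 kept genes of myostatin, activin and BMP signalling 5 were higher and 5 lower, with a median of 0.02 that became −0.13 with total count scaling. The activin subunit gene Inhbb stood at 196 against 20.9 (3.17), the other activin subunit Inhba at 4.40 against 38.3 (−2.86), and Smad3, which carries the signal of both activin and myostatin, at 181 against 1154 (−2.67). Myostatin (Mstn) stood at 391 against 178 in the exercised pair and at 208 against 420 in the sedentary pair.

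**Figure D2:**
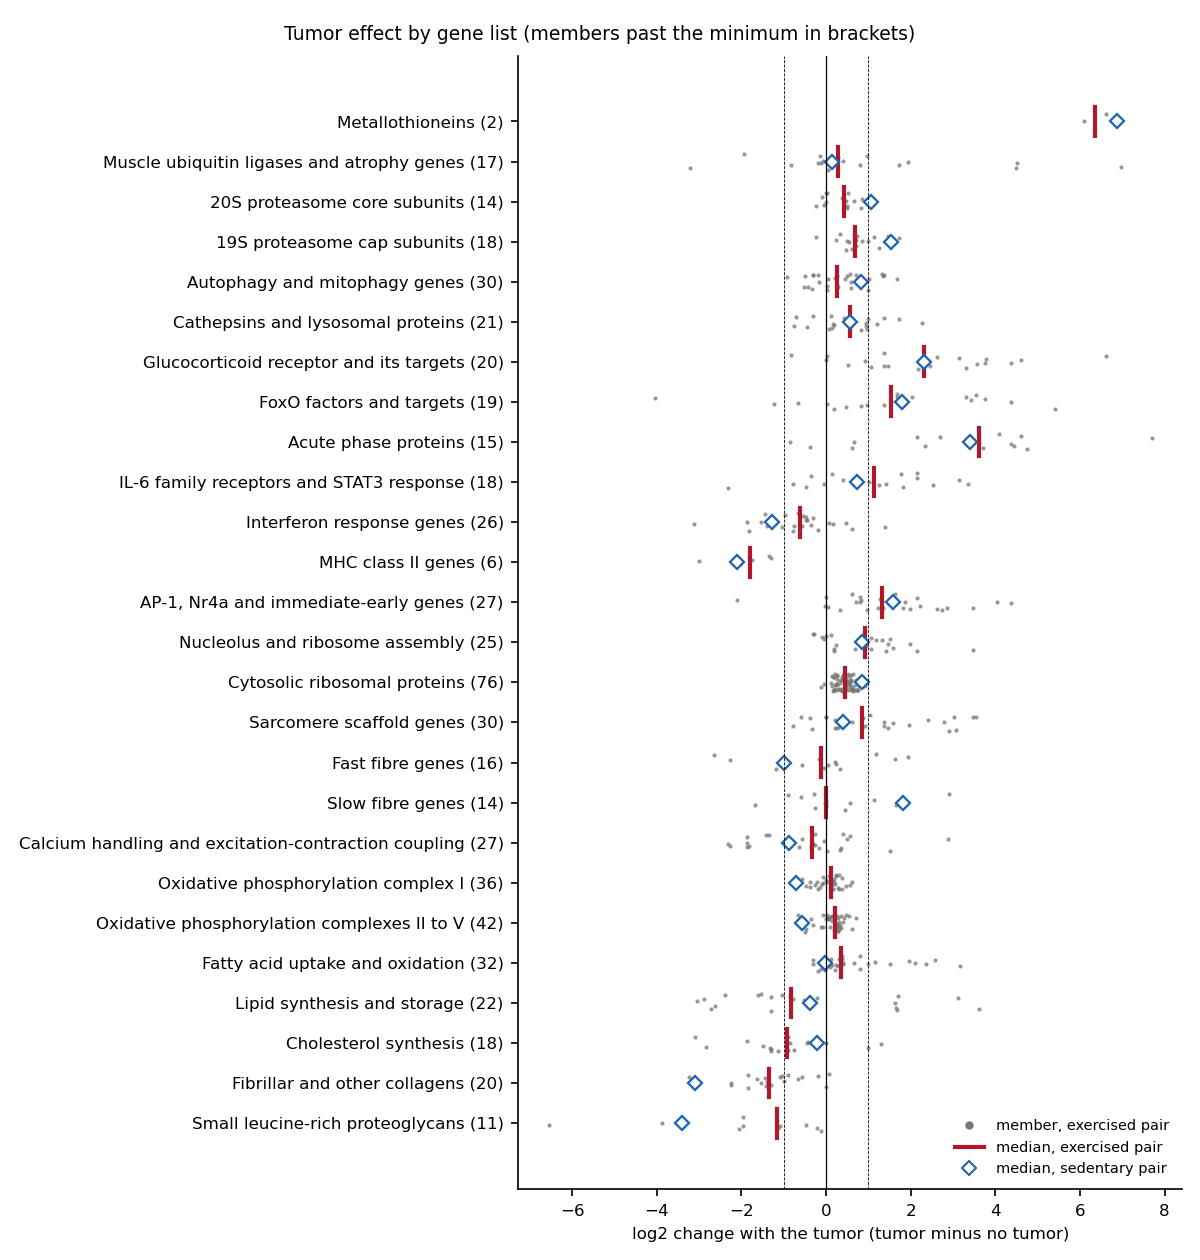
Each row is a gene list; grey points are its members past the minimum in the exercised pair, the red bar their median and the blue diamond the median of the sedentary pair, on an x axis of log2 change with the tumor, with dashed lines at 2-fold. The exercised medians of acute phase proteins (3.61) and glucocorticoid targets (2.31) lie far to the right and those of MHC class II genes (−1.79) and collagens (−1.35) to the left, while oxidative phosphorylation stays near 0 in the exercised pair and lies below it in the sedentary pair.

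Acute phase proteins, normally secreted by the liver, were among the strongest groups. Of 24 listed genes 15 were kept, 11 of them higher and none lower, and those 11 were higher in both pairs. The median was 3.61 in the exercised and 3.40 in the sedentary pair, and the summed level of the list was 4624 against 1022. Of the 24 genes 7 had no reads in normal exercise and 3 none in cancer exercise. A gene without reads in normal exercise was kept only through its level in cancer exercise, so it could only be higher. Serum amyloid Saa1 had 191 reads in cancer exercise and none in normal exercise, at least 85.1-fold higher. The iron-sequestering lipocalin Lcn2 stood at 669 against 26.6 (24.3-fold, interval 4.14 to 5.20) and the protease inhibitor Serpina3n at 2054 against 98.7 (20.6-fold). Fibrinogen Fgg and the inhibitor heavy chain Itih4 had 19 and 24 reads against none. Some plasma proteins of the list did not follow, with albumin (Alb) at 77.0 against 100 and orosomucoid Orm1 at 53.1 against 97.2. Of 9 kept markers of liver 2 were higher and 2 lower, with differences from −4.10 to 3.91 and a median of −0.14 that was 0.05 with quantile normalization. Their summed level was 1928 against 980, most of it the cytochrome Cyp2e1 at 1022 against 67.1; whether they bear on the acute phase values was not tested.

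The list of IL-6 family receptors and STAT3 response genes had 10 higher and 1 lower of 18 kept members, with a median of 1.13. The transcription factor Cebpd stood at 4281 against 481 (8.89-fold), the feedback inhibitor Socs3 at 945 against 164 (5.74-fold), Junb at 681 against 154 and the receptor Il6ra at 331 against 73.6. The receptor of ciliary neurotrophic factor, Cntfr, was the lower member, at 7.65 against 42.2. Stat3 itself stood at 2597 against 1949, under 2-fold. Cish, a feedback inhibitor of STAT5, stood at 523 against 50.1 (10.3-fold), whereas in the sedentary pair it stood at 296 with the tumor and 1341 without.

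Other arms of inflammation were split or went the other way. Of 20 NF-kB and TNF receptor genes 6 were higher and 3 lower, including the inhibitor Nfkbia (4362 against 1595) and the TWEAK receptor Tnfrsf12a (326 against 84.2) among the higher, and Tnfaip2 (366 against 1308) among the lower. Of 26 interferon response genes 1 was higher and 9 lower, with a median of −0.62. Ifit3 stood at 9.82 against 93.3 (−3.12, interval −4.42 to −2.28), and the antiviral Rsad2 at 146 against 55.0 was the higher one. All 6 kept MHC class II genes, which present antigen to CD4+ T cells, were lower in the exercised and in the sedentary pair, with exercised values of 91.0 against 737 for H2-Ab1, 295 against 1211 for the invariant chain Cd74 and 398 against 1410 for H2-Aa. Of 9 MHC class I genes 3 were lower, among them H2-K1 at 570 against 1301, and the sedentary pair had none lower.

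Chemokine genes included 1 large rise. Cxcl13, a B cell attractant, stood at 2171 against 100 (21.4-fold, interval 4.17 to 4.71), close to its sedentary 22.4-fold. Of the 14 kept chemokines 3 were higher and 4 lower, with Ccl6 at 2150 against 792 and Cxcl1 at 27.1 against 10.4 among the higher, and the monocyte attractant Ccl8 (26.1 against 136) and Ccl5 (8.73 against 40.7) among the lower. Complement genes were 5 higher and none lower of 17, with the adipose factor Cfd at 8129 against 3642 and C4b at 743 against 303.

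Most kept neutrophil markers were higher with the tumor. Of 17 neutrophil genes measured, 8 passed the minimum, 7 of them higher and none lower, and their summed level was 2808 in cancer exercise and 252 in normal exercise, with 4313 and 147 in the sedentary pair. Retnlg had 175 reads against 3 (58.0-fold, interval 4.71 to 8.58), the calgranulins S100a8 and S100a9 stood at 958 against 71.2 and 695 against 75.2, and the collagenase Mmp8 had 98 reads against 2 (interval 4.14 to 9.10). Trem1 had 25 reads against none. Retnlg, Mmp8 and Trem1 passed the minimum only through the cancer exercise library. Lcn2 and Mmp8 also belong to the acute phase and matrix protease lists, and 4 neutrophil markers in cancer exercise and 6 in normal exercise had no reads. Macrophage markers summed 4696 against 3611, with a median of 0.10 that was −0.06 with total count scaling. Cd68 (319 against 94.7) and the scavenger receptor Cd163 (846 against 281) were higher and Cx3cr1 (15.2 against 63.5) was lower. Of 16 T and NK cell markers 1 passed the minimum, with a summed level of 28.2 against 111 and 10 and 5 markers without reads, and B and plasma cell markers stood at 5.48 against 36.6. The part of these cells in the values of the immune lists was not tested.

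Immediate-early and AP-1 genes were mostly higher with the tumor. Of 27 kept members 16 were higher and 1 lower, 13 of them the same way in the sedentary pair, with a median of 1.33 against 1.57 in the sedentary pair. Fosl1 had 18 reads against none, Myc stood at 44.3 against 3.09, the antiproliferative factor Btg2 at 740 against 102, the orphan nuclear receptor Nr4a3 at 124 against 17.7 and Jun at 2231 against 725. Egr1, often the first gene induced by a stimulus, stood at 257 against 263 (interval −0.28 to 0.21), and Egr2 was lower. Clock genes were 6 higher and 4 lower of 19, with the period gene Per1 at 286 against 45.2 and the output factors Dbp (114 against 388) and Hlf (94.3 against 330) opposite; their median of 0.12 was −0.03 with total count scaling. The labels give no hour of collection.

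Genes for making ribosomes and protein were shifted upward by small amounts. Of 76 cytosolic ribosomal protein genes 74 had a difference above 0 and none was called, with a median of 0.44 and a range of −0.12 to 0.92. Rplp1 stood at 43027 against 33340, Rps20 at 30131 against 17008 and Rps14 at 28903 against 20170. The median stayed above 0 under every scaling tried, the lowest being 0.19 with quantile normalization. Genes of the nucleolus and ribosome assembly moved further, with 11 of 25 higher, none lower and a median of 0.92, for example Rrp12 at 439 against 98.7 and Nop14 at 1136 against 376. Among 40 translation factors 7 were higher and none lower, led by the elongation factor Eef2 at 19796 against 8282. Of 28 heat shock genes 5 were higher and 1 lower, beside 10.9% higher and 12.8% lower among all kept rows. The higher ones were led by the small heat shock proteins of muscle Hspb7 (4308 against 756) and Hspb1 (22072 against 4783). The median of this list, 0.13, was −0.03 with total count scaling and −0.02 with quantile normalization. In the stress response of the endoplasmic reticulum 7 of 30 were higher and 2 lower, with Xbp1 at 1954 against 445 and the glutathione-degrading Chac1 at 473 against 59.0, while Atf5 was lower at 591 against 2159.

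In the contractile apparatus, of 30 sarcomere scaffold genes 13 were higher and none lower, with a median of 0.86 against 0.41 in the sedentary pair. The ankyrin repeat stress sensors Ankrd2 and Ankrd1 stood at 21753 against 1860 (11.7-fold) and 3928 against 352 (11.1-fold), the actin crosslinker Flnc at 7101 against 837, leiomodin Lmod2 at 5483 against 676 and the LIM protein Csrp3 at 4823 against 642. Among 16 fast fibre genes 3 were higher and 5 lower. The calcium buffer parvalbumin (Pvalb) stood at 24440 against 152769 (6.25-fold lower), the light chain Myl1 at 37666 against 86115, tropomyosin Tpm1 at 96282 against 208544 and the fast troponin Tnnc2 at 163507 against 340665. The myosin heavy chains Myh1 (IIx) and Myh2 (IIa) were higher, at 16914 against 4450 and 11568 against 5144, while Myh4 (IIb) was level.

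Slow fibre genes were 3 higher and 1 lower of 14 with a median that rounded to 0 and was −0.16 with total count scaling, against 10 higher, 2 lower and 1.82 in the sedentary pair. The slow light chains Myl2 (2080 against 3157) and Myl3 (2474 against 4652) were not called. Calcium handling was 2 higher and 8 lower of 27, with a median of −0.34. The store protein calsequestrin Casq1 stood at 2626 against 12783 (4.87-fold lower), the coupling protein Stac3 at 67.2 against 341 and the kinase Camk2a at 972 against 3582, whereas sarcolipin (Sln), a brake on the calcium pump, stood at 1029 against 138 (7.39-fold higher) and the pump Atp2a1 at 120276 against 94957. The myosin light chain kinase gene Mylk4 stood at 785 against 8174 in the exercised pair and 35.4 against 7814 in the sedentary pair. The astrocyte and muscle water channel Aqp4 stood at 22.8 against 192, with no reads in the sedentary tumor library.

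At the nerve-muscle junction the subunits of the acetylcholine receptor diverged. Chrna9, an alpha subunit better known from the inner ear, had 207 reads in cancer exercise and none in normal exercise, at least 92.2-fold higher, and 25 against none in the sedentary pair. The muscle subunit Chrna1 stood at 350 against 166, the adult subunit Chrne at 23.9 against 77.2 and acetylcholinesterase (Ache) at 10.9 against 40.7. The list of 16 held 4 higher and 5 lower. Markers of Schwann cells and nerve stood beside it at a summed 2605 against 3807, with 5 of 14 lower and none higher; their part was not tested. Of the myogenic factors 3 of 23 were higher and 7 lower, with Mef2c at 4941 against 11143, and the satellite cell factor Pax7 had no reads in cancer exercise and 27 in normal exercise (at least 6.74-fold lower). Satellite cell markers did not all follow Pax7. Of 10 kept members 2 were higher and 3 lower, with a median of −0.56 and a summed level of 34807 against 30251.

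**Figure D3:**
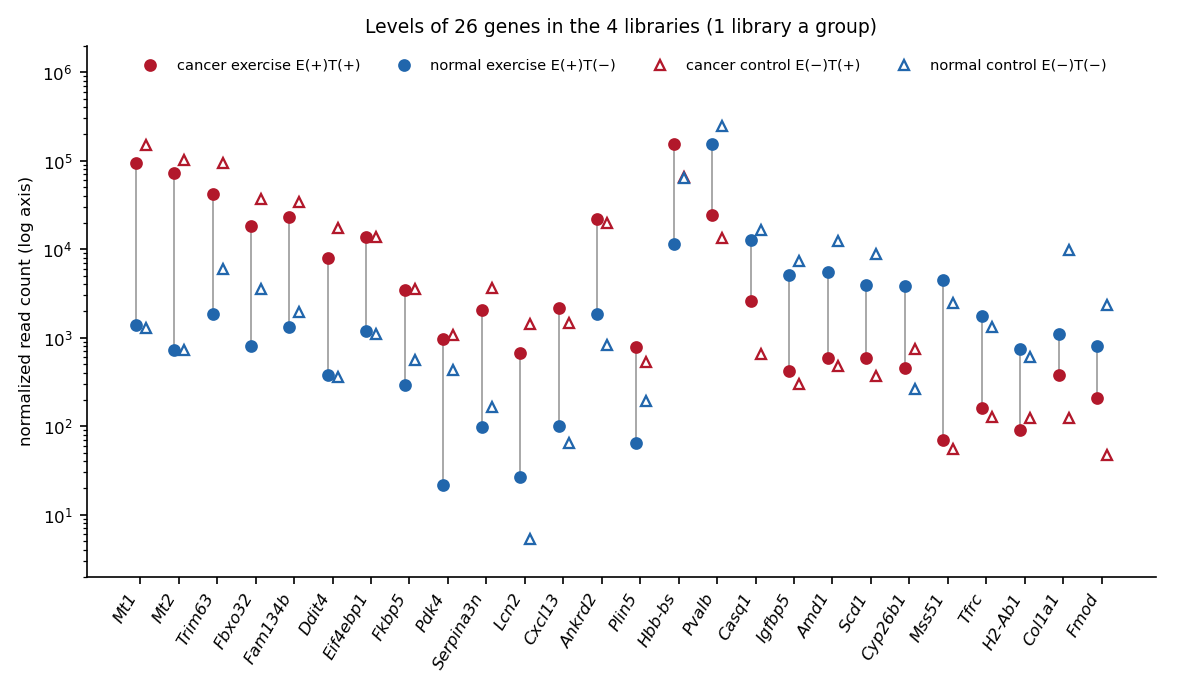
Normalized read counts on a log axis of 26 genes in each of the 4 libraries; filled circles joined by a line are the exercised pair and open triangles the sedentary pair, red with and blue without the tumor, with 1 library a symbol and so no error bars. In most genes the red and blue triangles lie on the same sides as the circles, whereas Hbb-bs has both triangles between the circles and Cyp26b1 has them the other way round.

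Of 32 genes of fatty acid uptake and oxidation 8 were higher and none lower, with a median of 0.35. That share was close to the 23.7% of all kept rows called in either direction and above the 10.9% that were higher. The thioesterases Acot1 and Acot2 stood at 158 against 16.9 and 1248 against 289, malonyl-CoA decarboxylase Mlycd at 1873 against 361 (5.18-fold) and lipoprotein lipase Lpl at 18028 against 6316. The uncoupling protein Ucp3 stood at 562 against 145 in the exercised pair and 251 against 592 in the sedentary pair. Of the 22 kept genes of lipid synthesis and storage 6 were higher and 10 lower. The desaturases Scd1 and Scd2 stood at 596 against 3945 and 162 against 1353, fatty acid synthase Fasn at 1119 against 5877, their regulator Srebf1 at 215 against 1595 and the lipase inhibitor G0s2 at 715 against 4441. The droplet coats Plin5 and Plin4 stood at 791 against 63.8 (12.2-fold) and 5241 against 605, and the lipase Pnpla2 at 10268 against 3342. Scd2 was level in the sedentary pair, at 450 and 466.

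Cholesterol synthesis was 1 higher and 8 lower of 18, with a median of −0.92 against −0.21 in the sedentary pair. Lanosterol synthase Lss had 7 reads against 90 (interval −4.62 to −2.16) and the reductase Hsd17b7 stood at 17.4 against 130. Adipose markers beside these lists had 4 of 16 higher and 2 lower, with a summed level of 57401 against 35677. Adipoq stood at 1122 against 753 and Fabp4 at 16326 against 15607 and Plin1 at 50.9 against 87.6, none of them called, while in the sedentary pair Adipoq stood at 604 against 1939 and Fabp4 at 7967 against 22087. The part of adipose tissue in the lipid values was not tested.

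Oxidative phosphorylation was not called in a single gene of the exercised pair, with 36 kept genes of complex I (median 0.12) and 42 of complexes II to V (median 0.21). The sign of both medians depended on the scaling, at −0.03 and 0.06 with total count scaling and −0.23 and −0.16 with quantile normalization. In the sedentary pair 12 and 9 of these genes were lower and none higher, with medians of −0.71 and −0.58. The subunits Ndufb5 and Cox6a2 stood at 18103 against 15705 and 62996 against 47841 in the exercised pair. Glycolysis was 2 higher and 1 lower of 18, glycogen metabolism 3 higher and 3 lower of 16, with the phosphoglucomutase gene Pgm2 at 2073 against 13853 and the UDP-glucose enzyme Ugp2 at 15456 against 4178. The AMPK subunit gene Prkag3, restricted to fast muscle, stood at 129 against 1838 (14.2-fold lower) and the pyruvate dehydrogenase phosphatase Pdp1, which opposes Pdk4, at 557 against 2131. Smox, which oxidizes spermine, stood at 367 against 2861 and the transferrin receptor Tfrc at 159 against 1748 (10.9-fold lower), close to its sedentary 10.4-fold.

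Collagens and small proteoglycans of the extracellular matrix were mostly lower. Of 20 kept fibrillar and other collagens 13 were lower and none higher, with a median of −1.35 against −3.11 in the sedentary pair, and 12 were lower in both. Col1a1 stood at 377 against 1096 in the exercised pair and 124 against 9741 in the sedentary pair, Col1a2 at 789 against 2453 and Col3a1 at 523 against 1300. In these 3 genes the normal exercise library lay under its sedentary counterpart and the cancer exercise library above its own, with sedentary values of 574 against 13178 for Col1a2 and 212 against 8421 for Col3a1. Small leucine-rich proteoglycans, which organize collagen fibres, were 8 lower and none higher of 11, with Ogn at 400 against 1559 and Fmod at 209 against 815, while decorin (Dcn) was level at 34756 against 37431. Tendon markers moved with them, 7 of 12 lower and 1 higher, though their summed level was 7022 against 6839. Tnmd had 10 reads against 231 (interval −5.19 to −3.21) and Chad 1 read against 249 (log2 ratio −6.56, interval −12.85 to −5.05). Fibroblast markers were 7 of 14 lower and none higher, summed 57375 against 78507. The part of tendon or fibroblast content in the matrix values was not tested.

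Of the 25 kept matricellular and adhesive glycoproteins 2 were higher and 6 lower, with a median of −0.19. Of 33 kept proteases, inhibitors and lysyl oxidases 9 were higher and 3 lower, with a median of 0.35. The crosslinking enzyme Lox stood at 1234 against 268 (4.59-fold), the stromelysin Mmp3 at 85.5 against 16.1 and the aggrecanase Adamts4 at 71.4 against 8.76, while Loxl2 stood at 82.4 against 289 and the prolyl hydroxylase P4ha1 at 83.4 against 306. Basement membrane genes were 1 higher and none lower of 16, with Col4a1 at 2215 against 1239.

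Red cell transcripts were higher in the exercised pair and not in the sedentary pair. Of 13 kept red cell genes 10 were higher and 1 lower, with a median of 3.51 against −0.18 in the sedentary pair, and they took 5.84% of the reads in cancer exercise and 0.631% in normal exercise, with 2.78% and 2.76% in the sedentary libraries; the exact 95% binomial intervals of the exercised shares were 5.82% to 5.85% and 0.627% to 0.636%. The difference between the pairs was not tested. The globin Hba-a1 stood at 303428 against 36737 and 150353 against 163734 in the sedentary pair, and Hbb-bs at 153725 against 11449 and 66128 against 63522. The cancer exercise library was the highest of the 4 in both genes and the normal exercise library the lowest. Near-identical globin copies may share reads, which makes each copy and the sum uncertain. The heme enzyme Alas2, which has no such copy, stood at 1443 against 126 (11.4-fold) and 642 against 557. Bpgm, which adjusts oxygen release, was lower at 474 against 1041. Platelet markers were 4 of 7 higher and 1 lower. Endothelial markers, which mark the vessels, summed 9265 against 9583, with 2 of 19 higher and 2 lower, and pericyte and smooth muscle markers 5067 against 5110.

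**Figure D4:**
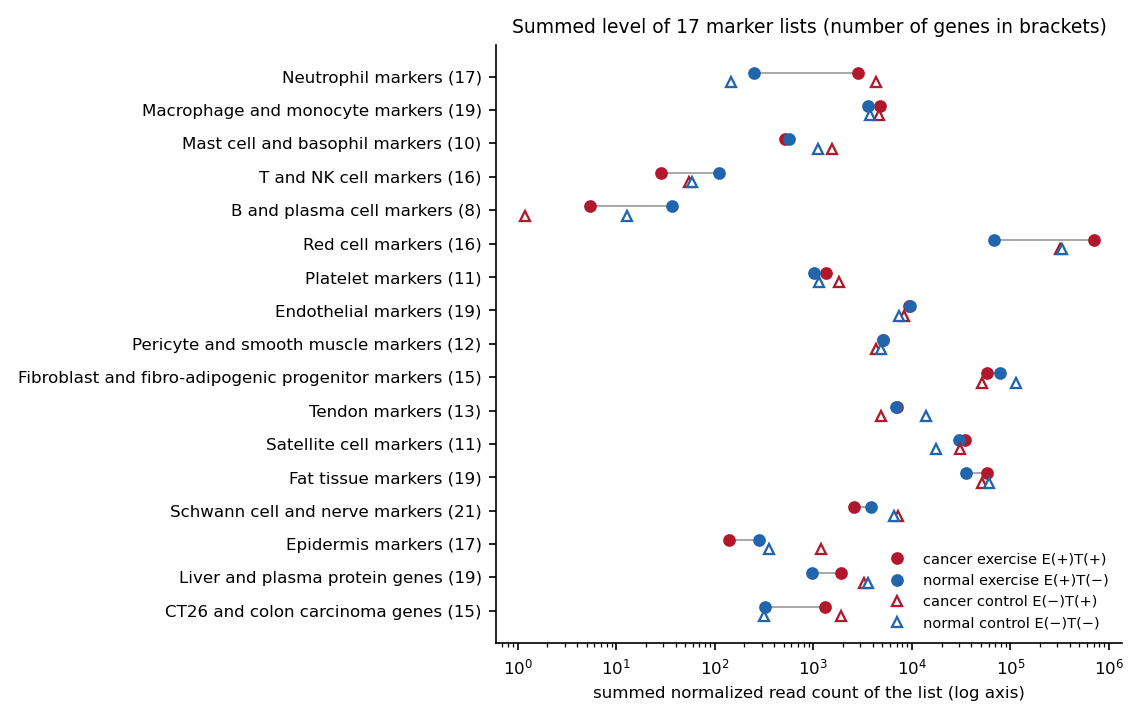
Summed normalized read counts, on a log axis, of 17 marker lists in the 4 libraries; circles joined by a line are the exercised pair, triangles the sedentary pair, red with and blue without the tumor, 1 library a symbol. Neutrophil markers separate the tumor libraries from the others in both pairs, red cell markers separate the exercised libraries only, and endothelial and pericyte markers lie within a narrow range.

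Of 15 listed genes of CT26 and colon carcinoma 2 passed the minimum and both were higher, Lgals3 at 1274 against 286 and Krt19 at 36.7 against 14.5, and 10 in cancer exercise and 9 in normal exercise had no reads. The summed level of the list was 1328 against 327, and 1888 against 318 in the sedentary pair. Macrophages also express Lgals3, and whether RNA of tumor cells was part of these values was not tested. Krt20, an intestinal keratin that is among the largest rises, had 52 reads in cancer exercise and none in normal exercise (at least 23.2-fold higher). Krt19 and Krt20 passed the minimum only through the cancer exercise library, so neither could have been lower. Krt20 was named for the size of its rise. Epidermal markers gave 4 kept genes, 3 of them lower and 1 higher, at a summed 141 against 281.

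Several of the largest falls were of genes without reads in cancer exercise. Cdh4, a cadherin, had no reads in cancer exercise and 818 in normal exercise (at least 204-fold lower), Gdap1, a mitochondrial fission protein, none against 265 (at least 66.1-fold lower) and the prostaglandin receptor Ptger3 none against 113 (at least 28.2-fold lower). The same 3 genes were nearly without reads in the sedentary tumor library, with 3, 1 and 0 reads. Mss51, a mitochondrial regulator of fast muscle, stood at 69.4 against 4450 (63.3-fold lower) and at 54.7 against 2462 in the sedentary pair, and the muscle secreted peptide gene Ostn at 15.2 against 660. Serpinb6b had no reads against 101, whereas in the sedentary pair it stood at 48.2 and 37.2. Among 191 families formed from symbol stems with at least 8 kept rows, the highest medians belonged to Serpina (2.68, 5 of 8 higher), Acot (1.85, 6 of 9 higher) and Mmp (1.02, 6 of 11 higher), and the lowest to the interferon-inducible Gbp family (−1.26, 6 of 9 lower), Col (−1.08, 16 of 30 lower) and Ccl (−0.95, 7 of 14 lower).

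Set beside the sedentary pair, with which it shares no library, the exercised pair had fewer calls. In sedentary muscle 12768 rows passed the minimum, of which 18.7% were higher and 21.5% lower with the tumor. Rows called the same way in both pairs numbered 1546, which is 52.3% of the exercised and 30.2% of the sedentary calls, with 711 higher and 835 lower. In opposite directions 191 rows were called (6.46% and 3.73%), and 1218 (41.2% of the exercised calls) were called in the exercised pair only, which with 1 library a group was not tested. Of these, 92 rows at a level of 100 or more had a sedentary difference within 0.25, 56 higher and 36 lower, led by the globins and Alas2 among the higher and by Scd2, the magnesium transporter Slc41a3 (284 against 1099) and the cell cycle factor Tfdp1 (71.6 against 260) among the lower. Cyp26b1, which degrades retinoic acid, was called in opposite directions, at 457 against 3829 in the exercised and 735 against 264 in the sedentary pair. Hamp2, a hepcidin gene, was level in exercised muscle at 1990 against 1930 and stood at 5366 against 52.2 in sedentary muscle.

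**Figure D5:**
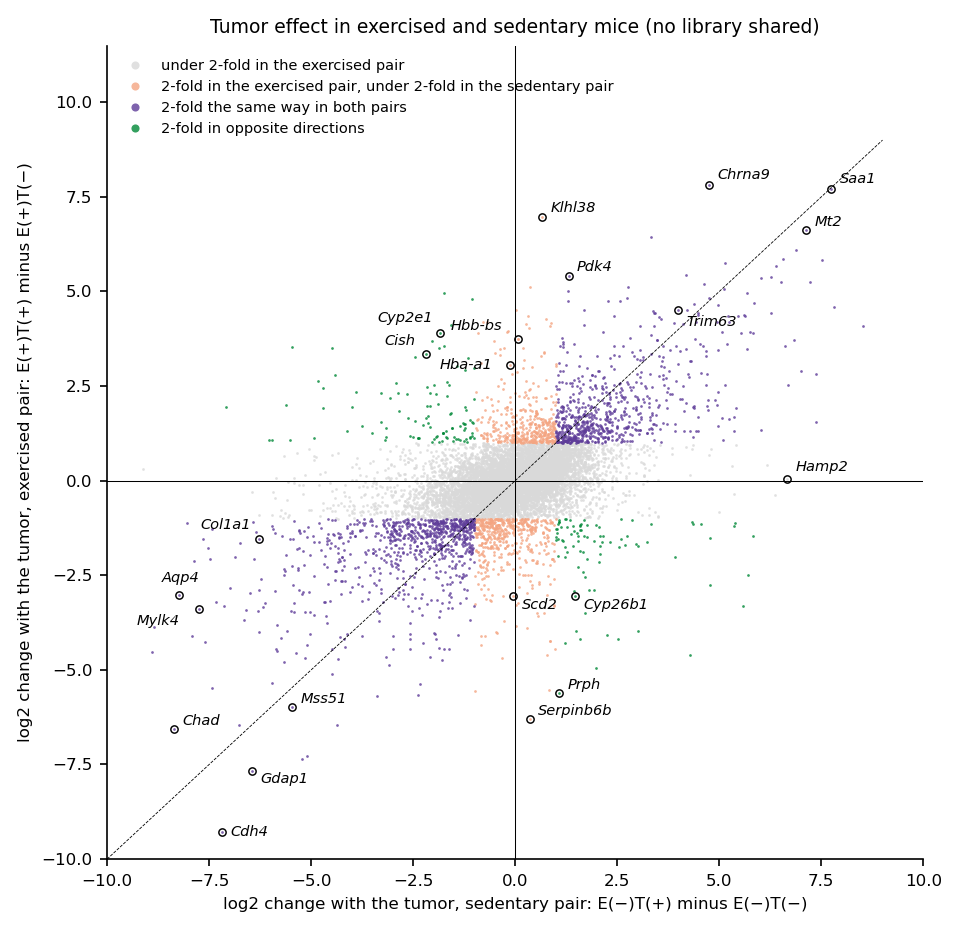
Each point is a gene row past the minimum in both pairs, with its log2 change with the tumor in the sedentary pair on the x axis and in the exercised pair on the y axis; the dashed line marks equal changes. Purple rows were called the same way in both pairs, orange in the exercised pair only and green in opposite directions, and Col1a1 (−1.54 against −6.28), Hamp2 (0.04 against 6.66) and Pdk4 (5.42 against 1.31) lie far from the dashed line.

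The study named 13 muscle candidate genes from these same libraries, so their values are not independent evidence. In the exercised pair 3 were higher, Trim63 (4.52), the small Maf factor Maff (338 against 84.9, 1.98) and Fos (34 reads against 9, 2.22), and 3 were lower, Col3a1 (−1.31), Col1a1 (−1.54) and the homeobox factor Six2 (175 against 613, −1.80). The other 7 were under 2-fold, with log2 differences of −0.62 for Osr2, −0.58 for Col5a2, −0.33 for Myl6b, 0.47 for Il15, 0.81 for Asb2 and 0.92 for Ifrd1, and Tnnc1 was level at 1688 against 1692.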

How the data were processed

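Libraries were made with the Lexogen QuantSeq 3′ kit from Trizol RNA. The authors aligned reads with Bowtie2, counted them with Bedtools and normalized them in edgeR; the build in the submitters' processing notes is mm10. Each deposited file lists 1 library as log2 values, taken after adding 1 to the normalized read count. Whole reads explained 100% of the deposited values within 0.0006 on the log2 scale. Libraries held 10647460 to 13225998 reads, and their scale factors were within 0.0149% of those of the TMM method. In cancer exercise 2161 genes without reads carry values slightly above 0. Rows of 23238 symbols were used, 79 rows sharing a symbol with another row.

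Rows were compared by the difference of the deposited log2 values, with no test. Intervals are exact (Clopper-Pearson, 95%) on the reads and cover counting error only, and 0 reads were replaced by 3 for an "at least" fold. The members and lists were chosen with earlier results of these data known; 85 lists held 1886 members, of which 29 were not matched, 9 were matched by a synonym and 1 misspelt symbol was corrected after the values were seen. The list of mitochondrially encoded transcripts was not analysed here, and some list members are counted but not reported by name. Named genes are the 10 largest changes each way among all kept rows, among abundant rows and among rows called in both pairs, the 5 each way with a sedentary change near 0, up to 5 each way and the 3 highest in each list described, and the study's 13 candidates. Tsc22d3, Sgk1, Stat3, Fkbp5, Glul, Hamp2, Mylk4, Aqp4, Jun and the tissue check genes were included as background genes after their values were seen where no rule names them. Alternatives changed the scaling, the pseudocount, the minimum, the fold and the rows with shared symbols. The comparison was tested on simulated data. Promoters came from RefSeq (GRCm38.p6). Python 3.11.15, numpy 2.4.6, scipy 1.17.1, pandas 2.3.3 and matplotlib 3.10.9 were used.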

Additional observations from a re-analysis of the deposited data

Results flagged for a closer look

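Some genes named here were called 2-fold in opposite directions in the exercised and the sedentary pair. With 1 library a group the difference was not tested for any of them. Levels and reads are not given in this section, and a log2 change from a low level is uncertain. Over all rows 191 were called in opposite directions, and 50 when a minimum of 16 was asked of both libraries. In each sentence the difference is the exercised log2 change minus the sedentary one.

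Higher with the tumor in exercised and lower in sedentary muscle were the fat marker Arxes2 (1.94 and −7.08, difference 9.02), the cytochrome Cyp2e1 (3.91 and −1.84, difference 5.75), the STAT5 inhibitor Cish (3.36 and −2.18, difference 5.54) and the stress gene Chac1 (2.98 and −1.02, difference 4.00). The growth factor Bmp5 (1.53 and −2.13, difference 3.66), the myogenic factor Myf5 (1.16 and −2.50, difference 3.66), the uncoupling protein Ucp3 (1.95 and −1.24, difference 3.19) and the lipase inhibitor Angptl4 (2.17 and −1.02, difference 3.18) did the same. So did the complement factor Cfd (1.16 and −1.69, difference 2.85), the homeobox gene Hoxd4 (1.05 and −1.52, difference 2.57), the BMP target Id1 (1.06 and −1.25, difference 2.32) and myostatin, Mstn (1.13 and −1.01, difference 2.14).

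Lower with the tumor in exercised and higher in sedentary muscle were the neurofilament-like Prph (−5.62 and 1.07, difference −6.69), hepcidin Hamp (−1.63 and 3.22, difference −4.86), the retinoic acid hydroxylase Cyp26b1 (−3.06 and 1.47, difference −4.54) and the NF-kB inhibitor Tnfaip3 (−1.59 and 1.94, difference −3.53). The transcriptional coactivator Eya4 (−1.18 and 1.98, difference −3.16), the monocyte receptor Cx3cr1 (−1.99 and 1.06, difference −3.05), the epidermal Perp (−1.59 and 1.17, difference −2.76) and the myelin gene Mal (−1.28 and 1.02, difference −2.29) followed the same order. The epidermis marker list had medians of −1.24 and 3.13, a difference of −4.38, over different numbers of members past the minimum.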

How the results depend on the processing

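No paired analysis was possible because each group has 1 library, and for the same reason no library could be left out. Total count, quantile, TMM and median scaling kept all 4 counts of calls within 1.5 times of those reported. A pseudocount of 16 gave 50 rows called in opposite directions in both pairs in place of 191, and a minimum of 4 gave 507. A minimum of 64 gave 888 higher, 911 lower and 35 opposite rows; a minimum of 16 in both libraries gave 973 lower, 994 called the same way and 50 opposite. With no minimum the counts were 2384 higher, 2700 lower, 2451 the same way and 735 opposite, and at 4-fold 427, 474, 370 and 25. Opposite calls thus depended most on low values. Values of 820 genes were followed over the alternatives of scaling and pseudocount. Most of these genes were list members, and 64 were named by other rules. Of their values 5058 stayed within the counting interval of the reported value and 682 moved, with no called gene changing sign. Of list medians 36 values changed sign, all of medians under 2-fold.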
